A study of Mus musculus with 30 samples.

Results

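The 32 genes described here are imprinted mouse genes, given as a list of symbols, and found in the table of 48440 genes by their Ensembl identifiers. They lie in 15 imprinted domains, 7 of which are represented by 1 gene each. RNA was measured in 30 tumors that grew in C57BL/6 mice from 5 primary cell lines, each derived from 1 fibrosarcoma induced with methylcholanthrene (MCA). MCA-943 gave 4 tumors, MCA-948 and MCA-969 gave 8 each, MCA-970 gave 6 and MCA-972 gave 4. The labels give the mouse strain as Ncr1Cre for MCA-943 and as Ncr1Cre R26DTA for the other lines. In the latter, diphtheria toxin A is produced in cells that have expressed Cre from the Ncr1 gene, which is active in NK cells and type 1 innate lymphoid cells. The study classes MCA-948, MCA-970 and MCA-972 as sensitive to NK1.1+ cells and MCA-943 and MCA-969 as non-sensitive. Within MCA-969 the labels call 2 tumors (W-1D, W-2D) sensitive, and both were kept with their line. The study induced the primary cancers in mice of both genotypes. It then transplanted the lines into C57BL/6 mice with or without a depleting anti-NK1.1 antibody, which also removes NKT cells. The titles also carry a letter, a or W, and an animal code. The series compares growth in wild-type and NK cell deficient mice, but which letter stands for which host or treatment is not stated. Each line stems from 1 primary cancer, so that the tumors of a line are repeats and not independent cancers.

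An imprinted gene is transcribed mainly from the copy inherited from 1 parent. Imprinted genes lie in clusters that share a control region, whose DNA is methylated on either the maternal or the paternal chromosome, and many clusters hold a long noncoding RNA that is expressed from the chromosome on which the protein-coding genes are silent. Several of the paternally expressed genes promote fetal growth, several of the maternally expressed genes restrain it, and both kinds are generally turned down in adult tissues. Of the genes listed here, 22 are known as paternally expressed, 8 as maternally expressed and 2, Grb10 and Gnas, as expressed from either allele according to the transcript or tissue. The counts do not separate the alleles, so that only the sum of both copies is given.

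The tumors had 27745104 to 46537062 counts each. The summed level of 15 fibroblast and mesenchymal markers was 17780 to 84700 CPM (counts scaled to library size) over all tumors, against 29.7 to 389.4 for 25 leukocyte markers and 5.61 to 18.3 for 15 muscle fiber markers. The summed level of 15 endothelial markers differed between tumors of 1 line and between lines. It was 95.5 to 217.5 CPM in MCA-943, 45.6 to 734.4 in MCA-948, 138.9 to 406.3 in MCA-969, 337.1 to 777.1 in MCA-970 and 90.2 to 210.2 in MCA-972. The largest marker in MCA-970 was Cdh5, with a mean of 240.3 CPM (standard deviation 18.2), against means of 26.8 to 48.7 in the other lines. Pecam1 in MCA-970 had a mean of 86.6 (standard deviation 43.5). Whether the sum follows endothelial content in MCA-970, and how results change without Cdh5, was not tested. In bulk tumors, fewer cells of a type and less RNA per cell cannot be told apart. The library numbers were cut at their gaps into 3 stretches, called runs here, which partly follow the lines. What a stretch stands for is not stated. Run 1 lies far from the others. The gap between runs 2 and 3 is small and little wider than a gap inside run 3, so that this cut is uncertain. By this cut MCA-943 shared a run only with MCA-948, and MCA-972 only with MCA-969. All results by run depend on it, and joining runs 2 and 3 was not tested.

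A gene was called active in a line if it reached 1 CPM in every tumor, not detected if no tumor had more than 3 counts, and low otherwise. By this rule 14 of the 32 imprinted genes (43.8%) were active in all 5 lines, against 22% of all genes. These were H19, Cdkn1c, Kcnq1ot1, Dlk1, Mest, Peg10, Sgce, Grb10, Zrsr1, Igf2r, Airn, Gnas, Slc38a4 and Impact. Another 8 were active in some lines and low in the others, namely Ndn, Peg12, Igf2, Phlda2, Meg3, Rian, Mirg and Plagl1. The remaining 10 reached 1 CPM throughout in no line, and 1 of these, Zim1, was not detected in any line. No imprinted gene was active in 1 line and not detected in another, a pattern found for 233 of the 13262 genes active in at least 1 line (1.76%). The number of active members was 18 in MCA-943, 18 in MCA-948, 20 in MCA-969, 19 in MCA-970 and 17 in MCA-972, against 23.3% to 25.2% of all genes by line. The number not detected was 5, 2, 4, 3 and 4 in the same order, against 57.9% to 61.6% of all genes by line. A domain in which all listed genes were not detected occurred once, for the single-gene Nnat domain in MCA-969, so that in all other cases at least 1 gene of the domain exceeded 3 counts in some tumor.

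**Figure D1:**
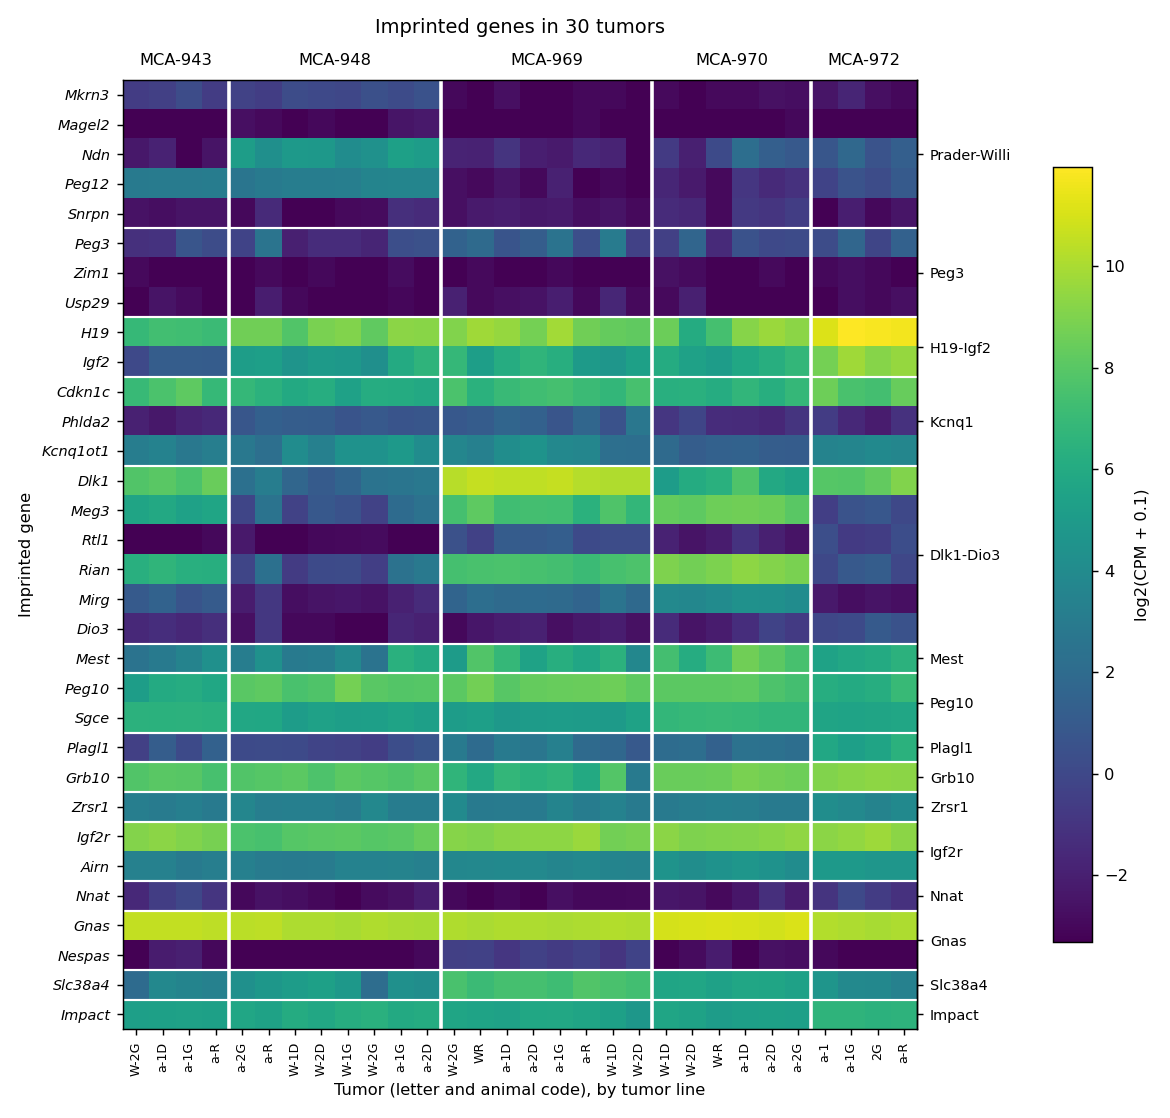
Level of the 32 imprinted genes (rows, grouped by domain, with the domain named on the right) in the 30 tumors (columns, grouped by line), as log2(CPM + 0.1) by color. Tumors of 1 line resemble each other in most rows, and the Dlk1-Dio3, Prader-Willi and H19-Igf2 rows change in steps from line to line.

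Of the 32 genes, 29 passed the filter on low counts and were tested. The exceptions were Magel2, Zim1 and Usp29. Across the 5 lines 26 of the 29 (89.7%) were called, at an adjusted p under 0.05 in edgeR's quasi-likelihood test and a difference of at least 1 on the log2 scale between the highest and lowest line, against 58.0% of the 16862 genes tested. The median difference between the highest and lowest line was 4.11 on the log2 scale for the imprinted genes and 1.19 for all genes. The 3 that were not called were Peg3 (adjusted p = 0.0800), Zrsr1, whose lines spanned 0.87 (adjusted p = 0.00103), and Gnas, whose lines spanned 0.90 (adjusted p = 1.7e-12). In 15 of the 29 (51.7%) 1 line was called above or below all 4 other lines, against 20% of all genes. Some of these stood apart at both ends, with H19 and Igf2 lowest in MCA-943 and highest in MCA-972, Dlk1 lowest in MCA-948 and highest in MCA-969, and Mirg lowest in MCA-972 and highest in MCA-970. Of these 19 positions of a gene and a line, 9 were still called in all 4 pairs with the run in the model and 15 with the endothelial score. The 9 were Ndn highest and Dlk1 and Igf2r lowest in MCA-948, Peg12 lowest and Slc38a4 highest in MCA-969, Mirg highest in MCA-970, Plagl1 highest in MCA-972 and Igf2 at both ends. The 32 genes were chosen with earlier results of these data known, so these shares do not measure imprinted genes in general. Among 38 other imprinted genes, described below, 66.7% of those tested were called across the lines, with a median difference of 1.23.

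The Dlk1-Dio3 domain lies on chromosome 12 (GRCm38, from 109452823 to 110281097). Its paternal chromosome expresses the protein-coding genes Dlk1, Rtl1 and Dio3, and its maternal chromosome the noncoding RNAs Meg3, Rian and Mirg. Dlk1 encodes a transmembrane relative of the Notch ligands, made by preadipocytes and many fetal cells. Dlk1 was at 198, 225, 266 and 352 CPM in the MCA-943 tumors and at 238, 240, 308 and 523 in MCA-972. It lay between 1.96 and 8.81 in MCA-948 (median 5.19), between 1102 and 1553 in MCA-969 (median 1342) and between 34.4 and 216 in MCA-970 (median 63.4). MCA-948 lay below and MCA-969 above every tumor of the other lines. The log2 fold change between these 2 lines was -8.09 (standard error 0.39, edgeR adjusted p = 5.5e-16). MCA-969 was no longer called above MCA-943 with the run in the model (adjusted p = 0.110).

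Meg3, a noncoding RNA with growth-restraining activity, did not follow Dlk1. Its level was 41.8, 48.3, 50.7 and 59.7 CPM in MCA-943, 85.3 to 291 in MCA-969 (median 164) and 260 to 406 in MCA-970 (median 350). In MCA-948 it was 0.70 to 5.43 (median 1.55), and in MCA-972 it was 0.60, 0.90, 1.42 and 1.64. The tumors of MCA-948 and MCA-972 overlapped each other and lay below all tumors of the other 3 lines, and the difference between these 2 lines was not called. Between MCA-970 and MCA-972 the log2 fold change was 8.16 (standard error 0.59, edgeR adjusted p = 1.1e-11).

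Rian, which hosts a large array of small nucleolar RNAs, and Mirg, which hosts a cluster of microRNAs, had the same division. Rian was at 76.3, 78.1, 80.9 and 100 CPM in MCA-943, between 138 and 203 in MCA-969 (median 182) and between 420 and 644 in MCA-970 (median 504). It was at 0.53 to 7.12 in MCA-948 (median 1.01) and at 0.87, 0.90, 1.83 and 2.13 in MCA-972. Mirg was at 1.45, 1.95, 1.98 and 2.64 in MCA-943, at 2.90 to 5.76 in MCA-969 (median 3.76) and at 13.1 to 21.4 in MCA-970 (median 16.7). It was at 0.050 to 0.455 in MCA-948 (median 0.111) and at 0.048, 0.054, 0.077 and 0.109 in MCA-972. For both RNAs, MCA-970 was called above all other lines, at log2 fold changes of 8.42 for Rian (standard error 0.64, edgeR adjusted p = 3.0e-11) and 7.79 for Mirg (standard error 0.43, adjusted p = 1.3e-14) over MCA-972. Rian in MCA-970 was not called above MCA-969 with the endothelial score in the model, where the difference went from -1.48 to -0.75 on the log2 scale, or with the run (adjusted p = 0.0527). Within the second run it was called, at -1.36. The call of Mirg as lower in MCA-972 than in MCA-948 (edgeR adjusted p = 0.0482) did not hold with the run or the endothelial score in the model, and was lost in 17 of 30 fits that each omitted 1 tumor.

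The 2 lines with little of the maternal RNAs differed in the paternal genes. In MCA-972, Dlk1 overlapped with MCA-943, and Rtl1, a gene derived from a retrotransposon, was at 0.51, 0.59, 1.14 and 1.17 CPM. It was at 0.69 to 2.28 in MCA-969 (median 1.17) and at 0.074 to 0.366 in MCA-970. In MCA-943 no tumor had more than 1 count, and it reached at most 0.103 CPM in MCA-948. Dio3, which encodes the deiodinase that inactivates thyroid hormone, was highest in MCA-972, at 0.85, 0.97, 1.33 and 1.87 CPM, above all other tumors. Dio3 was at 0.223, 0.235, 0.294 and 0.315 in MCA-943, at 0 to 0.455 in MCA-948 (median 0.038), at 0.027 to 0.166 in MCA-969 (median 0.093) and at 0.075 to 0.726 in MCA-970 (median 0.286). The difference was widest from MCA-969, at -3.68 on the log2 scale for that line against MCA-972 (standard error 0.55, edgeR adjusted p = 1.7e-06). With the run in the model, MCA-972 was called above MCA-969 alone, and not above MCA-943 (adjusted p = 0.809), MCA-948 (adjusted p = 0.167) or MCA-970 (adjusted p = 0.216).

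Levels per transcript length (RPKM) set Meg3 against Dlk1. The ratio of Meg3 to Dlk1 had a median of 1.65 in MCA-970, with the tumors between 0.589 and 2.98. It was 0.045 to 0.070 in MCA-943, 0.040 to 0.280 in MCA-948, 0.022 to 0.059 in MCA-969 and 0.00054 to 0.00188 in MCA-972. The ratio in every MCA-970 tumor was above, and in every MCA-972 tumor below, that of all tumors of the other lines. The table of gene lengths treats all annotated exons of a gene as 1 transcript.

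**Figure D2:**
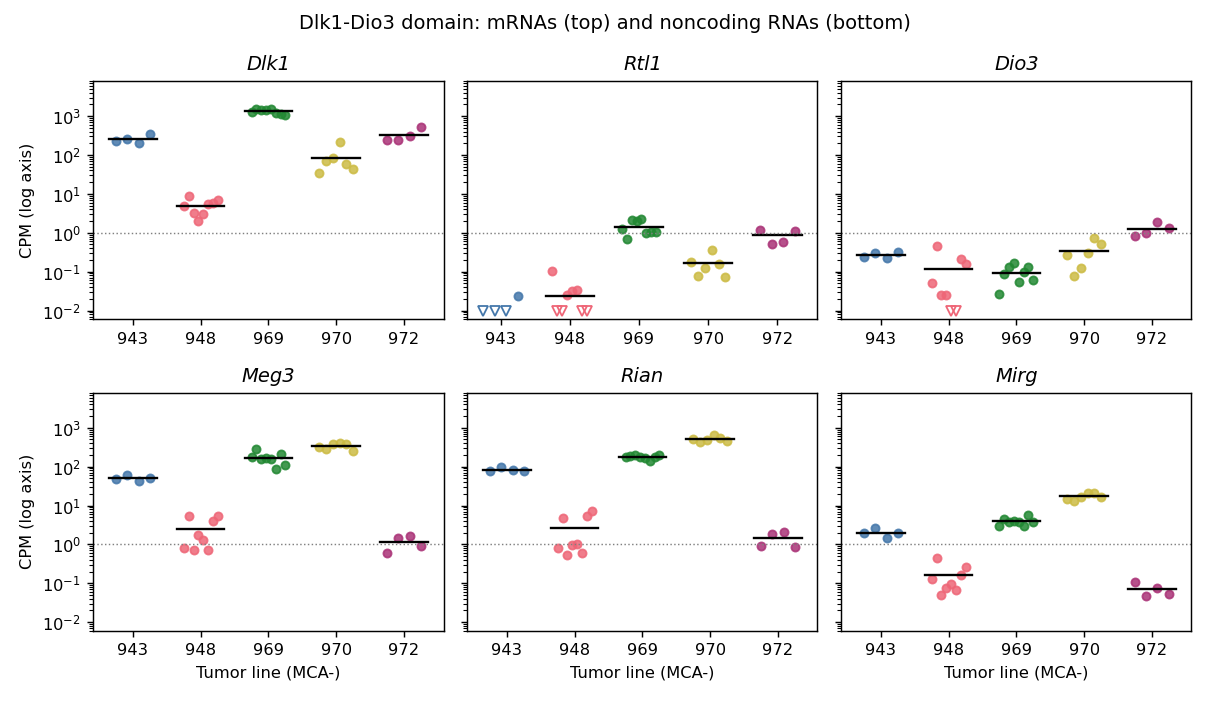
CPM (log axis) of the 6 genes of the Dlk1-Dio3 domain in each tumor (points) of the 5 lines, with the mean of each line (bar, left out where the mean is below 0.01) and 1 CPM dotted. Tumors below 0.01 CPM are drawn as open triangles at 0.01. The 3 noncoding RNAs in the lower row are near or below 1 CPM in many tumors of MCA-948 and MCA-972, whereas Dlk1 in MCA-972 overlaps with MCA-943 and is lowest in MCA-948.

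The sequence before the RefSeq start of Meg3 (250 bases, GRCm38.p6, chr12:109540746-109540995, forward strand) and the stretch before that of Dlk1 (192 bases, chr12:109452573-109452764, forward strand, ending where a predicted exon begins) are shown because these 2 genes of 1 domain parted in MCA-972. Capitals mark CG pairs, the sites of DNA methylation. RefSeq supplied both.
Meg3: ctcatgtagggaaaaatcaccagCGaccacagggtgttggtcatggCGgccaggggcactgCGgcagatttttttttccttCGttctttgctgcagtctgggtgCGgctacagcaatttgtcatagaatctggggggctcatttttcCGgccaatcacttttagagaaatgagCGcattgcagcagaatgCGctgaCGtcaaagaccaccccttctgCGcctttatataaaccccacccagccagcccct
Dlk1: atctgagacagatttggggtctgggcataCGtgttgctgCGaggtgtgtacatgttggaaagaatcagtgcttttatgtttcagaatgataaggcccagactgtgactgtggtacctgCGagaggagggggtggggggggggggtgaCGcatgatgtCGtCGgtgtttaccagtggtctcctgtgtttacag
The Meg3 stretch holds 10 CG pairs and the Dlk1 stretch 6. The hexamer TGCCGC, the core that the imprint-protecting protein ZFP57 binds when its CG is methylated, was searched on both strands, and 1 match was found for Meg3 and 0 for Dlk1. Over all 32851 RefSeq windows of 250 bases before a start, 8.68% held the hexamer. Of the imprinted genes 25 had such a window, and 5 of their 40 windows held it. These belonged to 4 genes, Zim1, Meg3, Mest and Plagl1, and those of Mest overlap nearly in full. DNA methylation was not measured.

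The maternal RNAs of the domain carry microRNAs, which would be cut from the host transcript. RefSeq places 3 mature microRNAs within Meg3, 6 within Rian and 26 within Mirg on the same strand, and 11 on the strand opposite to Rtl1. They are shown for the host RNAs that divided the lines, with the seed (bases 2 to 8) in capitals, and were chosen after the values of the hosts were seen. Their own levels were not measured here.
miR-770-3p (Meg3): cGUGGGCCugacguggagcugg
miR-341-3p (Rian): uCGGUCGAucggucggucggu
miR-370-3p (Rian): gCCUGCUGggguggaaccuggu
miR-134-5p (Mirg): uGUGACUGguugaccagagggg
miR-382-5p (Mirg): gAAGUUGUucgugguggauucg
miR-410-3p (Mirg): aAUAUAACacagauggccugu
miR-453 (Mirg): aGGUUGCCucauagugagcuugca
miR-496a-5p (Mirg): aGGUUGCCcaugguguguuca
miR-127-3p (opposite to Rtl1): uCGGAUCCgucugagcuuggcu
Only miR-453 and miR-496a-5p shared a seed among all the mature microRNAs found within the imprinted genes. The microRNAs opposite to Rtl1 match its mRNA in full, and how the counting treated strand is not stated.

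The Prader-Willi domain lies on chromosome 7 (GRCm38, from 59982495 to 62464510) and its 5 listed genes are expressed from the paternal chromosome. Ndn encodes necdin, a growth suppressor of the MAGE family that is abundant in neurons. Ndn was at 16.9 to 40.7 CPM in MCA-948 (median 29.2), above all other tumors. It was at 1.41, 1.61, 2.39 and 3.52 in MCA-972 and at 0.15 to 4.49 in MCA-970 (median 1.42), and these 2 lines overlapped. In MCA-943 it was at 0, 0.073, 0.101 and 0.171, and in MCA-969 at 0 to 0.392 (median 0.180). The log2 fold change of MCA-943 against MCA-948 was -8.18 (standard error 0.74, edgeR adjusted p = 1.1e-10), and between MCA-969 and MCA-970, the latter being higher, -3.19 (standard error 0.51, adjusted p = 4.3e-06).

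Peg12, which encodes an inhibitor of GSK-3, had a different order. It was at 7.68, 8.17, 8.18 and 8.28 CPM in MCA-943 and at 6.12 to 12.5 in MCA-948 (median 9.05). It was at 0.74, 1.08, 1.38 and 1.91 in MCA-972, at 0.031 to 0.427 in MCA-970 (median 0.230) and at 0 to 0.167 in MCA-969 (median 0.028). MCA-943 and MCA-948 overlapped and stood above all other tumors, and MCA-969 was called below every line. Between MCA-948 and MCA-969 the log2 fold change was 7.56 (standard error 0.39, edgeR adjusted p = 7.2e-16). In MCA-943, therefore, Peg12 was active while its neighbor Ndn was near the limit of detection.

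Mkrn3, a zinc finger protein of the same domain known for restraining puberty, followed the order of Peg12 at lower levels. Mkrn3 was at 0.56, 0.57, 0.64 and 1.08 CPM in MCA-943 and at 0.585 to 1.36 in MCA-948 (median 0.961), and it did not exceed 0.193 in the other lines. MCA-943 and MCA-948 were called above each of the 3 other lines, with log2 fold changes of 2.92 to 5.57. The calls against MCA-972 were lost for MCA-943 (adjusted p = 0.173) and for MCA-948 (adjusted p = 0.0825) with the run in the model. Magel2 had no count in any tumor of MCA-943 and MCA-972 and reached at most 0.107 CPM, in MCA-948. Snrpn, which encodes a splicing protein, was below 0.6 CPM in all tumors. It was at 0.049, 0.067, 0.073 and 0.074 in MCA-943, at 0 to 0.315 in MCA-948, at 0.030 to 0.131 in MCA-969, at 0.031 to 0.589 in MCA-970 (median 0.339) and at 0, 0.026, 0.082 and 0.145 in MCA-972. Its highest line, MCA-970, was called above the other 4, but with the endothelial score in the model the lines spanned 0.92 (adjusted p = 0.565). MCA-970 had the highest median endothelial sum, in which Cdh5 was the largest marker. One or more of the 4 calls of MCA-970 was lost without MCA-948 a-1G, MCA-970 a-1D, MCA-970 a-2D, MCA-970 a-2G, MCA-972 2G or MCA-972 a-1. Of the exon bases of Snrpn, 34.1% overlap another annotated gene, Snurf among them, so that its level is uncertain.

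**Figure D3:**
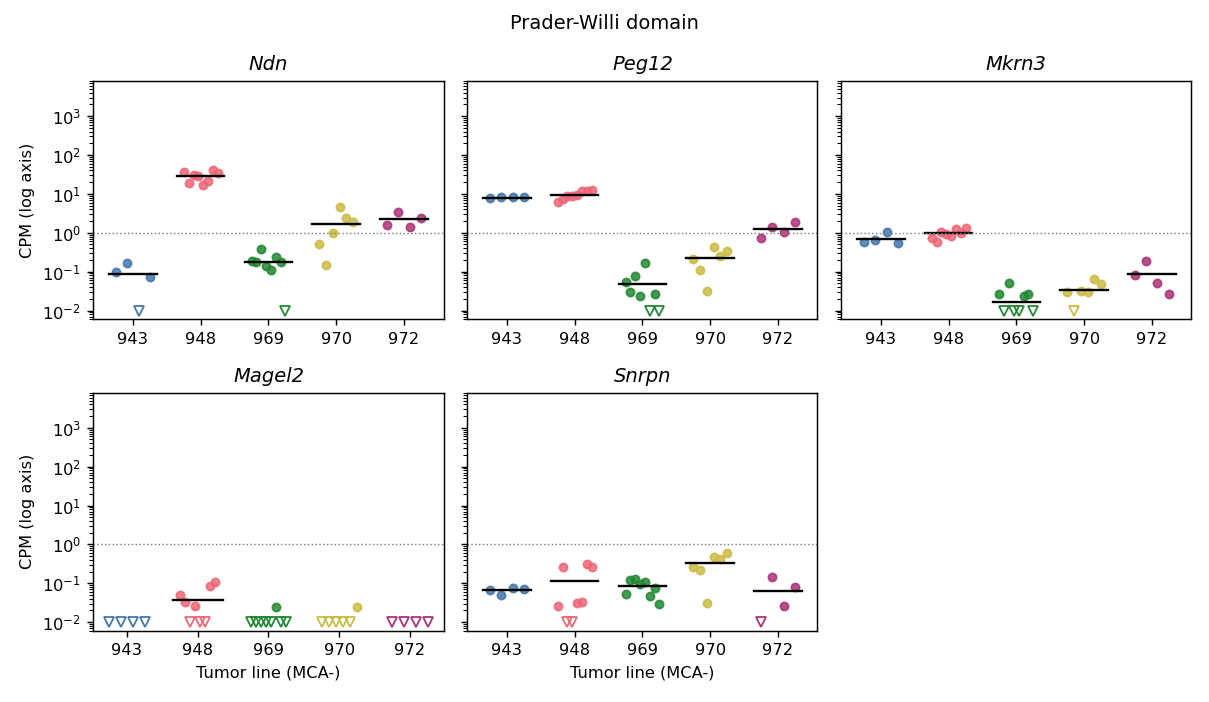
CPM (log axis) of the 5 genes of the Prader-Willi domain in each tumor (points), with the mean of each line (bar) and 1 CPM dotted. Tumors below 0.01 CPM are drawn as open triangles at 0.01. Ndn is highest in MCA-948, and Peg12 and Mkrn3 are higher in both MCA-943 and MCA-948 than in the other lines.

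The window before the RefSeq start of Peg12 (250 bases, GRCm38.p6, chr7:62464511-62464760, reverse strand) is shown because its gene was active beside a nearly silent Ndn in MCA-943, with CG pairs in capitals.
Peg12: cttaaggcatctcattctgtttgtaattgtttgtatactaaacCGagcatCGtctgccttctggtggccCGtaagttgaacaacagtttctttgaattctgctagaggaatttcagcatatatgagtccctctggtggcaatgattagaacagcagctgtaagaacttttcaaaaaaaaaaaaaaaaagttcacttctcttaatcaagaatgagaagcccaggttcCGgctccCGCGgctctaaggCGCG
It holds 8 CG pairs and no match of the hexamer TGCCGC. That of Ndn lies within an exon of another annotation and is not shown.

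The H19-Igf2 domain, on chromosome 7 from 142575529 to 142666816, holds the maternal noncoding RNA H19 and the paternal gene Igf2, which encodes a fetal growth factor. Both were highest in MCA-972 and lowest in MCA-943. H19 was at 2224, 3254, 3609 and 3965 CPM in MCA-972 and at 120, 137, 155 and 160 in MCA-943. It was at 225 to 630 in MCA-948 (median 443), at 297 to 925 in MCA-969 (median 490) and at 68.4 to 807 in MCA-970 (median 471), and these 3 lines overlapped. The MCA-970 range included all of MCA-943. Between MCA-943 and MCA-972 the log2 fold change of H19 was -4.52 (standard error 0.54, edgeR adjusted p = 4.2e-08). MCA-943 was not called below MCA-970 with the endothelial score in the model (adjusted p = 0.193), nor below MCA-969 with the run (adjusted p = 0.188). The call of MCA-972 above MCA-948 was lost with the run (adjusted p = 0.0539).

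Igf2 was at 434, 579, 749 and 872 CPM in MCA-972 and at 0.94, 2.08, 2.13 and 2.16 in MCA-943, with no overlap with any other line at either end. It was at 19.4 to 97.5 in MCA-948 (median 34.0), at 26.4 to 117 in MCA-969 (median 55.4) and at 35.4 to 112 in MCA-970 (median 61.5). The log2 fold change of MCA-943 against MCA-972 was -8.48 (standard error 0.65, edgeR adjusted p = 1.2e-11), the largest of any imprinted gene in any pair of lines. Per length, the ratio of H19 to Igf2 was 159 to 308 in MCA-943 and 3.86 to 57.0 over all other tumors, so that in MCA-943 Igf2 was lower relative to its neighbor than elsewhere. H19 is the host of miR-675, shown with its seed in capitals, whose level was not measured.
miR-675-5p: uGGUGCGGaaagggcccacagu
miR-675-3p: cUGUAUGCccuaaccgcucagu

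**Figure D4:**
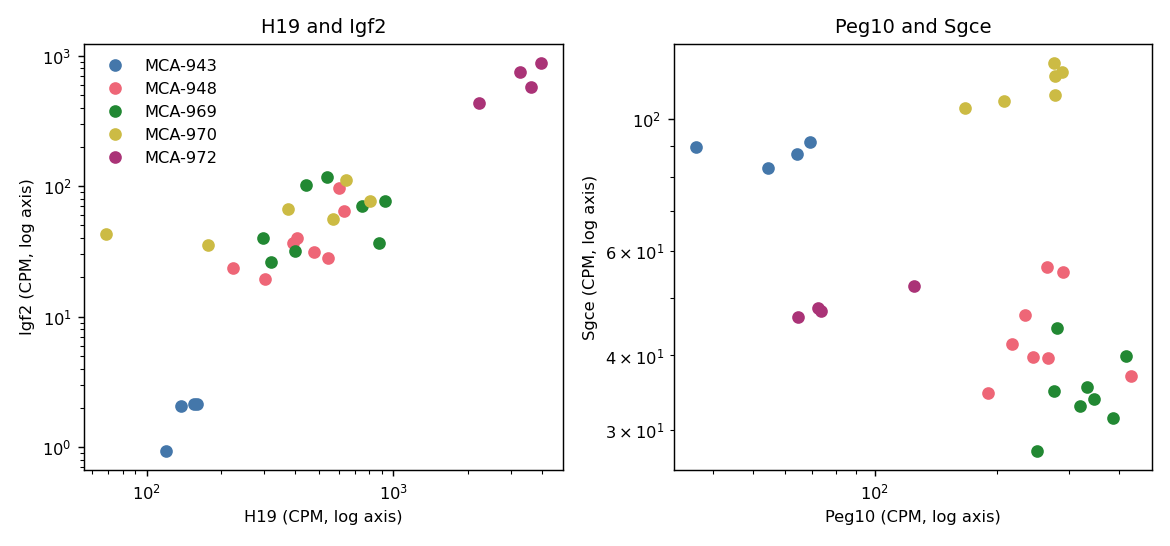
Level of Igf2 against H19 (left) and of Sgce against Peg10 (right) in each tumor, in CPM on log axes, with the line by color. MCA-972 tumors lie at the upper right and MCA-943 tumors at the lower left for H19 and Igf2, whereas MCA-943 combines low Peg10 with high Sgce.

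The Kcnq1 domain, next to it on chromosome 7, holds Kcnq1ot1, a paternal noncoding RNA that represses the domain in cis, and the maternal genes Cdkn1c, an inhibitor of cyclin-dependent kinases, and Phlda2, which restrains placental growth. Kcnq1ot1 was active in all lines and lowest in MCA-970, at 2.11 to 3.73 CPM (median 2.40). It was at 6.84, 8.85, 9.05 and 10.8 in MCA-943, at 4.78 to 28.9 in MCA-948 (median 17), at 4.40 to 22.5 in MCA-969 (median 12.7) and at 11.3, 12.1, 12.5 and 15 in MCA-972. Each other line was called above MCA-970, by 1.82 to 2.64 on the log2 scale. With the run in the model only MCA-948 was still called above it, and the difference from MCA-943 went from 1.82 to 0.12. Within the second run the difference was 1.23 for MCA-948, which was called, and 0.86 for MCA-969, which was not. Cdkn1c was active in every tumor, with means of 182 CPM in MCA-943, 72.6 in MCA-948, 146 in MCA-969, 88.3 in MCA-970 and 267 in MCA-972, and 5 of its 10 pairs were called, of which MCA-948 against MCA-969 was lost with the run in the model (adjusted p = 0.367). Of its exon bases, 30.7% overlap a gene on the other strand.

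Phlda2 was active only in MCA-948, at 1.46 to 2.5 CPM (median 1.70), and in MCA-969, at 1.32 to 6.52 (median 2.35). It was at 0.098, 0.168, 0.186 and 0.242 in MCA-943, at 0.221 to 0.826 in MCA-970 and at 0.128, 0.241, 0.354 and 0.545 in MCA-972, with no overlap between these 3 lines and the other 2. In the 6 pairs across this gap the log2 fold changes were 2.20 to 3.97 in size and all were called.

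Peg10 and Sgce share a promoter region on chromosome 6 and are both paternally expressed, Peg10 being derived from a retrotransposon and needed for placental growth and Sgce encoding epsilon-sarcoglycan. They were active in all lines but differed between lines in different ways. Peg10 was at 36.2, 54.6, 64.1 and 69.2 CPM in MCA-943 and 64.7, 72.5, 73.8 and 125 in MCA-972, and at medians of 255, 327 and 276 in MCA-948, MCA-969 and MCA-970. Sgce was at 82.6, 87.5, 89.9 and 91.5 in MCA-943 and at 105 to 124 in MCA-970 (median 114), with lower medians of 40.8 in MCA-948 and 34.3 in MCA-969. MCA-943 was called below MCA-948 for Peg10 (log2 fold change -2.22, standard error 0.22, edgeR adjusted p = 6.3e-10) and above it for Sgce (1.03, standard error 0.11, adjusted p = 4.0e-09). The call for Sgce in this pair was close to the threshold on the fold change and was lost without MCA-943 a-1G, MCA-948 a-2D, MCA-948 W-1D, MCA-948 W-1G or MCA-972 a-1G.

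Plagl1, a zinc finger regulator of other imprinted genes, stood out in MCA-972, at 40.1, 48.3, 58.0 and 86.1 CPM. It was at 0.64, 0.97, 2.18 and 2.59 in MCA-943, at 0.574 to 1.45 in MCA-948 (median 0.976), at 1.82 to 9.91 in MCA-969 (median 5.17) and at 2.62 to 5.22 in MCA-970 (median 4.44). MCA-972 lay above all other tumors, by 3.41 to 5.95 on the log2 scale, and the smallest of these differences, against MCA-969, had a standard error of 0.31 (edgeR adjusted p = 4.0e-10).

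Grb10, an adaptor that dampens insulin and IGF signaling, was lowest in MCA-969, at 7.30 to 237 CPM (median 93.0). It was at 184, 225, 248 and 264 in MCA-943, at 202 to 279 in MCA-948 (median 242), at 355 to 468 in MCA-970 (median 372) and at 529, 615, 637 and 650 in MCA-972. MCA-969 was called below each other line, by 1.28 to 2.68, and 1 of its tumors, W-2D, was far below the rest at 7.30. With the run in the model, MCA-969 was no longer called below MCA-943 (adjusted p = 0.357) or MCA-948 (adjusted p = 0.278). Mest, a hydrolase of mesodermal tissue, was at 5.63, 7.88, 11.4 and 20.1 CPM in MCA-943, at 5.47 to 81.7 in MCA-948, at 13.3 to 219 in MCA-969, at 70.8 to 396 in MCA-970 and at 44.3, 57.3, 64.5 and 91.4 in MCA-972. Mest was called in 6 pairs, of which that of MCA-969 against MCA-970 (adjusted p = 0.0414) was lost in 9 of 30 fits with 1 tumor omitted. The pairs still called with the run in the model were MCA-943 and MCA-948 against MCA-970. Of its exon bases, 23.1% overlap Copg2 on the other strand.

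Igf2r, on chromosome 17, removes IGF2 from the cell surface, and Airn is the antisense RNA of its paternal copy. Igf2r was lowest in MCA-948, at 180 to 332 CPM (median 252), below every other tumor. It was at 453, 530, 556 and 621 in MCA-943, at 409 to 803 in MCA-969 (median 610), at 505 to 687 in MCA-970 (median 586) and at 622, 624, 709 and 850 in MCA-972. The log2 fold changes of MCA-948 against the others were 1.14 to 1.52 in size, and that against MCA-972 was -1.52 (standard error 0.14, edgeR adjusted p = 1.3e-10). Airn was at 7.88, 9.32, 10.3 and 10.4 in MCA-943, 7.33 to 11.5 in MCA-948, 11.5 to 15.2 in MCA-969, 17.3 to 25.5 in MCA-970 and 25.4, 25.8, 28.9 and 31.0 in MCA-972. MCA-972 was called above MCA-943, MCA-948 and MCA-969 for Airn, and its difference from MCA-970 was not called.

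At the Gnas domain on chromosome 2, Gnas, which encodes the stimulatory G protein subunit, had mean CPM of 1471 in MCA-943, 1121 in MCA-948, 1093 in MCA-969, 2071 in MCA-970 and 1071 in MCA-972. None of its 10 pairs reached a 1-unit difference on the log2 scale. Its paternal antisense RNA Nespas was at 0.415 to 0.748 CPM in MCA-969 (median 0.659), above all other tumors. It was at 0, 0.024, 0.122 and 0.149 in MCA-943 and at 0 to 0.125 in MCA-970 (median 0.043). MCA-969 was not called above MCA-943 with the run in the model (adjusted p = 0.239). A single count was found in each of the lines MCA-948 and MCA-972, in 1 tumor each. Of the exon bases of Nespas 38.5% overlap another gene on either strand, Gnas among them.

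Slc38a4, an amino acid transporter, was highest in MCA-969, at 135 to 222 CPM (median 174), above all other tumors. It was at 3.99, 10.3, 11.7 and 14 in MCA-943, at 4.39 to 40.7 in MCA-948 (median 23.8), at 43.0 to 53.1 in MCA-970 (median 51.0) and at 10.2, 14.1, 14.5 and 25.2 in MCA-972. The smallest of the 4 differences, from MCA-970, was 1.87 on the log2 scale (standard error 0.29, edgeR adjusted p = 3.9e-06). Nnat, neuronatin of the endoplasmic reticulum, stayed below 1 CPM in all tumors. It was at 0.235, 0.411, 0.588 and 0.855 in MCA-943 and at 0.354, 0.382, 0.564 and 0.941 in MCA-972, and at most 0.316 in the other lines. Impact, a regulator of translation, was at 90.7, 92.8, 98.2 and 99.5 CPM in MCA-972, above all other tumors, which lay between 27.1 and 84.3. It was called above MCA-943, MCA-969 and MCA-970 and not above MCA-948. With the run in the model the differences from MCA-969 and MCA-970 were -0.94 and -0.72 on the log2 scale, under the threshold on the fold change. The call against MCA-969 was also lost with the endothelial score and without MCA-969 W-2D. Zrsr1, related to the splicing factor U2AF, stayed between 7.33 and 17.6 CPM in all tumors and was called in no pair.

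In the Peg3 domain on chromosome 7, Peg3, a zinc finger gene, was at 0.15 to 7.92 CPM over all tumors and active in no line. Its tumors overlapped between all lines, and MCA-943 against MCA-969 was the single pair called (edgeR adjusted p = 0.0466), which was not called with the run or the endothelial score in the model and was lost in 10 of 30 fits with 1 tumor omitted. With the endothelial score in the model Peg3 was called across the lines (range 3.65 on the log2 scale, edgeR adjusted p = 9.8e-06), as it was without MCA-948 a-R or MCA-970 W-2D. Zim1 did not exceed 0.059 CPM. Usp29, which is transcribed away from Peg3, reached at most 0.208 CPM, in MCA-969.

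Between tumors of 1 line, few imprinted genes correlated with the endothelial markers after adjustment. These were the maternal RNAs of the Dlk1-Dio3 domain in MCA-948 and Peg3 in MCA-969 and MCA-970. For the 29 genes and the 3 lines with at least 6 tumors, 87 correlations of log2 CPM with the log2 endothelial sum were computed, of which 15 had an unadjusted p under 0.05 and 5 an adjusted p under 0.05, all by two-sided exact permutation. At an unadjusted p under 0.05 these were 9 of 29 genes in MCA-948, where 9.62% of all genes passed, 3 in MCA-969 (20.7% of all genes) and 3 in MCA-970 (6.51%). In MCA-969 the share of imprinted genes was thus below that of all genes. In MCA-948, where the endothelial sum varied most, Meg3 had r = 0.952 (rho = 0.952, exact permutation p = 9.9e-04, adjusted p = 0.0475, n = 8). For Rian it was r = 0.917 (rho = 0.905, exact permutation p = 0.00164, adjusted p = 0.0475) and for Mirg r = 0.884 (rho = 0.905, exact permutation p = 0.00260, adjusted p = 0.0483). Within the 6 tumors of the third run these were 0.936, 0.910 and 0.889. Without the 2 tumors farthest from the median sum they were 0.938, 0.929 and 0.813, with exact permutation p of 0.0125, 0.00139 and 0.0528. With 2 tumors so left out, none of the 87 correlations passed after adjustment, the lowest adjusted p being 0.121. No rank correlation passed after adjustment, the lowest adjusted p being 0.0900.

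For Peg3, r was 0.926 in MCA-969 (rho = 0.929, exact permutation p = 0.00112, adjusted p = 0.0475, n = 8) and 0.839 in MCA-970 (rho = 0.943, exact permutation p = 0.00278, adjusted p = 0.0483, n = 6). Without the 2 farthest tumors r was 0.939 and 0.556, the latter with an exact permutation p of 0.333, and within the first run it was 0.928 in MCA-969. In MCA-948 it was 0.850 for Peg3 (exact permutation p = 0.00774, adjusted p = 0.0842). In MCA-970, r was -0.308 for Meg3 (rho = -0.543, exact permutation p = 0.521), 0.036 for Rian and 0.282 for Mirg. In MCA-969 it was 0.859 for Meg3 (rho = 0.714, exact permutation p = 0.00764, adjusted p = 0.0842) and 0.485 without the 2 farthest tumors, and it was 0.227 for Rian and 0.613 for Mirg. The endothelial sums of MCA-948 tumors reached those of MCA-970, at 734.4 against 337.1 to 777.1 CPM, while the highest Meg3 level was 5.43 CPM in the former and the lowest 260 in the latter. Cdh5 alone had a mean of 240.3 CPM in MCA-970 and 46.7 in MCA-948. With the endothelial score in the model, Meg3, Rian and Mirg were still called between MCA-948 and each of MCA-943, MCA-969 and MCA-970.

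**Figure D5:**
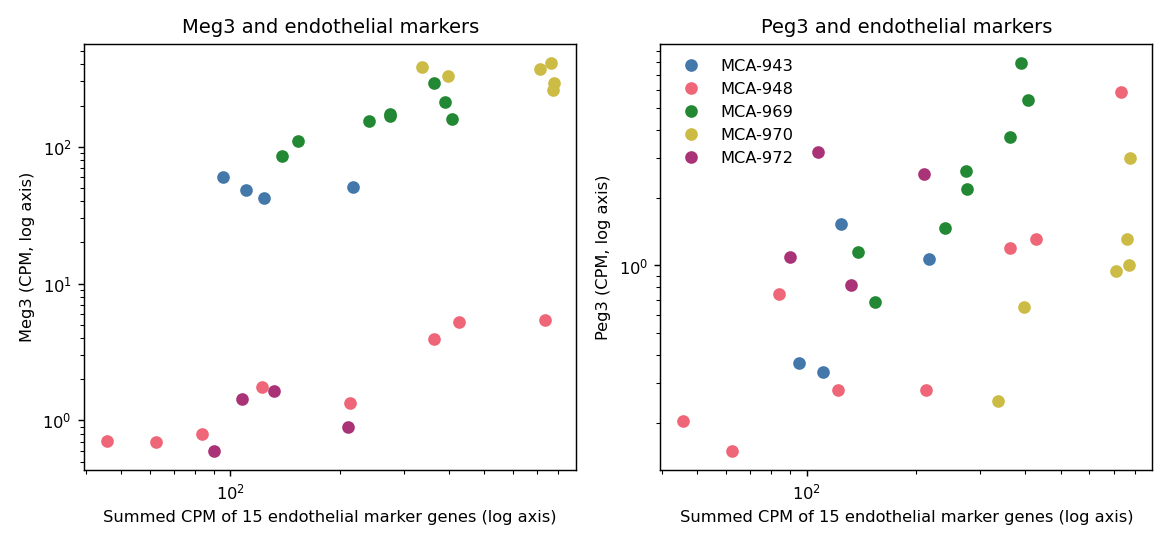
Level of Meg3 (left) and Peg3 (right) in CPM against the summed CPM of 15 endothelial marker genes, both on log axes, with 1 point a tumor and the line by color. Within MCA-948 both genes were higher in tumors with more endothelial RNA, and Meg3 of MCA-970 stayed far above MCA-948 at like endothelial sums. The marker Cdh5 had a mean of 240.3 CPM in MCA-970 and 46.7 in MCA-948.

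Neighboring genes were compared within the 3 lines of at least 6 tumors, where both reached a mean of 1 CPM, in 15 correlations of log2 CPM. Meg3 and Rian in MCA-948 had r = 0.970 (rho = 0.905, exact permutation p = 4.7e-04, adjusted p = 0.00707, n = 8), 0.942 without the 2 farthest tumors and 0.974 within the third run. None of the 14 others passed after adjustment. H19 and Igf2 had r of 0.741 in MCA-948, 0.385 in MCA-969 and 0.756 in MCA-970, with adjusted p of 0.181, 0.447 and 0.212 by exact permutation.

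Each line differed from each other line in 15 to 20 of the 29 tested genes. MCA-943 differed from MCA-948 in 15 imprinted genes, where 29.0% of all genes were called, from MCA-969 in 19 (27.0% of all), from MCA-970 in 20 (27.3%) and from MCA-972 in 16 (25.6%). MCA-948 differed from MCA-969 in 15 (20.8%), from MCA-970 in 19 (29.4%) and from MCA-972 in 17 (26.8%). MCA-969 differed from MCA-970 in 16 (21.4%) and from MCA-972 in 19 (20.6%), and MCA-970 from MCA-972 in 18 (17.6%). The median absolute log2 fold change was 1.23 to 2.23 for the imprinted genes and 0.415 to 0.618 for all genes over these pairs. The pairs share lines and are not independent of each other.

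Since runs follow the lines in part, the pairs were also compared within 1 run. All genes that were called with all tumors and could be tested kept their direction there. Of 13 such genes 12 were called for MCA-943 against MCA-948 in the third run, and of 18 genes 17 for MCA-969 against MCA-972 in the first. In the second run 13 of 16 were called for MCA-948 against MCA-970 and 10 of 15 for MCA-969 against MCA-970. With 2 tumors on each side, 3 of 15 were called for MCA-948 against MCA-969. The other pairs shared no run as cut here, and with the run as a term in the model 123 of the 174 calls over all pairs were kept. Of these, Ndn was kept in 7 of its 8 pairs, all but MCA-943 against MCA-972 (adjusted p = 0.156).

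The study asks what separates sensitive from non-sensitive lines. Of the 29 imprinted genes, Ndn alone was called lower in the non-sensitive line in all 6 pairs that set the 2 classes against each other, as were 0.225% of all genes, and none was called higher in all 6 (0.652% of all genes). The study had already listed Ndn as lower in non-sensitive tumors, from these same tumors. Omitting any 1 of the 30 tumors left Ndn called in all 6 pairs. With the run in the model, however, MCA-943 against MCA-972 was not called (edgeR adjusted p = 0.156), and these lines share no run. The lowest MCA-970 tumor, at 0.150 CPM, lay within the ranges of MCA-943 and MCA-969. Whether its level is tied to sensitivity beyond these 5 lines was not tested.

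Between tumors with the letter a and with W, compared within the 4 lines that have both (26 tumors), no imprinted gene was called in edgeR, DESeq2 or limma-voom, where 0.230% of the 16557 genes were called in edgeR. The smallest adjusted p was 0.136, for Dio3. At an unadjusted p under 0.05, 12 of the 29 genes were higher with a and 0 were lower, whereas 4.75% of all genes were higher and 2.60% lower. These 12 were Ndn, Snrpn, H19, Igf2, Cdkn1c, Dlk1, Rtl1, Rian, Dio3, Mest, Plagl1 and Nnat. Igf2 was at 19.4 to 31.3 CPM in the W tumors and 36.7 to 97.5 in the a tumors of MCA-948, which did not overlap. It was at 35.4, 42.8 and 67.1 in the W and 55.9, 77.5 and 111.9 in the a tumors of MCA-970. In MCA-969 the W tumors were at 26.4, 36.9, 40.2 and 117 and the a tumors at 31.8, 70.5, 77.0 and 103, which overlapped. In MCA-943 the single W tumor was at 0.94 and the a tumors at 2.08 to 2.16. The log2 difference over all 4 lines was 0.80 (standard error 0.24, edgeR adjusted p = 0.297) and was not called. Each of the 26 tumors was also left out in turn. Only without W-2G of MCA-969, the W tumor with the highest Igf2 of that line, was any imprinted gene called. This was Igf2, at 1.04 (standard error 0.19, edgeR adjusted p = 0.00676), in a fit that omits the tumor most opposed to the difference in MCA-969.

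Dio3 was at 0 to 0.025 CPM in the W and 0.051 to 0.455 in the a tumors of MCA-948, and at 0.075 to 0.267 and 0.305 to 0.726 in MCA-970, with no overlap in either line. In MCA-969 it was at 0.027 to 0.130 in the W and 0.056 to 0.166 in the a tumors, and in MCA-943 at 0.235 in the W and 0.223 to 0.315 in the a tumors, with overlap in both. In MCA-948 the endothelial sums also differed, at 45.6 to 212.9 CPM in W and 83.7 to 734.4 in a tumors, and in MCA-970 they were 337.1 to 777.1 and 709.7 to 773.3. With the endothelial score in the model, 8 of the 29 genes were higher with a at an unadjusted p under 0.05 (2.33% of all genes), and 0 were lower. That setting was added after the data were seen. The part of the endothelial content in these differences was otherwise not tested.

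A list of 38 other imprinted genes, drawn up with results of these data known, was set beside the 32 genes. Of its genes 27 were tested, 18 (66.7%) were called across the lines, and the median difference between the highest and lowest line was 1.23 on the log2 scale, close to that of all genes. The largest differences were in Slc22a18, Zdbf2, Begain, Kcnq1 and Ppp1r9a. Begain, which lies beside Dlk1 on chromosome 12, had means of 13.3 CPM in MCA-943, 0.418 in MCA-948, 13.3 in MCA-969, 2.85 in MCA-970 and 8.19 in MCA-972, and it shared the minimum in MCA-948 with Dlk1. Kcnq1, in the domain of Kcnq1ot1, rose from 0.512 in MCA-943 to 10.7 in MCA-972 as line means.

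Of 20 genes that maintain imprints or set and remove DNA methylation, 18 were tested and 5 (27.8%) were called across the lines, with a median difference of 0.73. These 5 were Tet1, Tet2, Dnmt3l, Setdb1 and Dnmt1. Dnmt1, the enzyme that copies methylation at replication, had means of 172 CPM in MCA-943, 307 in MCA-948, 148 in MCA-969, 199 in MCA-970 and 217 in MCA-972. Tet1, which oxidizes methylated cytosine, was at 5.37, 1.47, 9.99, 2.37 and 8.75 in the same order, a difference of 2.79 on the log2 scale (edgeR adjusted p = 5.7e-12).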

How the data were processed

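The authors removed hematopoietic cells with CD45 beads, aligned reads to GRCm38 by STAR 2.5.3a and deposited raw counts per gene from featureCounts (1.5.2 in the submitters' processing notes, another version in the study's methods). Per the file headers, whose column names hold umi and rmdup, duplicates were removed before counting. The strand setting is not stated, so that overlapping genes, given beside the results, are uncertain. Counts were normalized here with edgeR 4.0.16 (TMM, filterByExpr by line, robust quasi-likelihood fit, Benjamini-Hochberg over all 16862 genes), in R 4.3.3 with limma 3.58.1 and DESeq2 1.42.0. Log2 CPM used a prior count of 2. Calls required an adjusted p under 0.05 and a log2 fold change of at least 1. The methods were checked on simulated counts. All members are accounted for, with every tumor's value or the range for those set apart in 1 line, and up to 5 called genes are named for a list. The members and lists were chosen with earlier results of these data known. Replicates are tumors of 1 line, so that p-values measure the spread between tumors. Animal codes were not used to pair tumors in the main fit. Deviations from the line mean were correlated at -0.430 to 0.444 in 62 pairs from different lines with a shared code. In 290 other pairs from different lines they were correlated at -0.419 to 0.398. This cannot show whether tumors with a shared code came from 1 mouse. Alternatives were other tools, filters, thresholds and covariates, and leaving out each tumor.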

Additional observations from a re-analysis of the deposited data

Results flagged for a closer look

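In 145 groups of tumors (29 genes in 5 lines), 11 had 1 tumor set apart by the gap test on log2 CPM. Chance gives about 1 in 20 for normally spread values, a rate that does not hold for genes near 0. A group with a single count in 1 tumor and 0 in the others is always flagged. This was so for Rtl1 in MCA-943 and for Nespas in MCA-948 and MCA-972. Ndn in MCA-969 (0.527 against a limit of 0.526) and Peg12 in MCA-943 (0.835 against 0.829) passed narrowly. In MCA-969, the tumor W-2D was lowest for 3 genes, Grb10 at 7.297 CPM (others 60.4 to 237), Impact at 27.06 CPM (others 41.7 to 56.1) and Ndn at 0 CPM (others 0.111 to 0.392). It is 1 of the 2 tumors of this line that the labels call sensitive, and these 2 are also the only tumors of the line in run 2. Its muscle fiber sum was the highest of all tumors, at 18.3 CPM. Its fibroblast and mesenchymal sum was the lowest of its line, at 19117 CPM. In MCA-943, W-2G was lowest for Igf2 at 0.939 CPM (others 2.08 to 2.16) and for Peg12 at 7.68 CPM (others 8.17 to 8.28), and it is the single tumor of that line with the letter W. In MCA-948, W-2G was lowest for Slc38a4 at 4.389 CPM (others 18 to 40.7), and in MCA-970, W-R was lowest for Plagl1 at 2.619 CPM (others 4.18 to 5.22). Ndn in MCA-969 was near 0, with 0 to 15 counts. So were the remaining 4, with Rtl1 at 0.0242 CPM in MCA-943 a-R and 0.1028 CPM in MCA-948 a-2G, and Nespas at 0.02675 CPM in MCA-948 a-2D and 0.02726 CPM in MCA-972 a-1. No gene had a difference between the letters that changed with the line at an adjusted p under 0.05, and the lowest was 0.131, for Rian.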

How the results depend on the processing

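The number of genes called across the 5 lines was 26, and 20 to 28 under the alternatives. With DESeq2, 172 of the 174 calls in pairs of lines were kept, with limma-voom 170, without a filter 168 and with the animal code as a replicate block 169. With the leukocyte score 172 were kept and with the endothelial score 158. The column names also hold numbers S1 to S24, which are not the library numbers cut into runs and whose meaning is not stated. With S1 to S12 against S13 to S24 as a covariate, 157 were kept. The replicate block gave no count of calls that differed by more than 1.5 times. With the run as covariate, 10 genes were called in MCA-969 against MCA-970, 10 in MCA-943 against MCA-969, 10 in MCA-943 against MCA-972 and 11 in MCA-948 against MCA-972. A log2 fold change of at least 2 left 9 genes in MCA-969 against MCA-970, 11 in MCA-943 against MCA-969, 13 in MCA-943 against MCA-970 and 11 in MCA-948 against MCA-972. MCA-948 against MCA-969 within run 2 gave 3. Directions of called genes turned for Peg3 with the run, and for Snrpn in 3 pairs with the endothelial score. Leaving out each tumor gave 25 to 27 genes across the lines, 13 to 20 in the pairs and 0 to 1 between the letters. With up to 10 counts as not detected, 8, 6, 8, 6 and 7 genes were not detected in the lines in order. Of correlations that were not called, 3 in MCA-969 turned without the 2 farthest tumors, to -0.580 for Meg3 and Rian, -0.683 for Peg10 and Sgce and -0.026 for Igf2r and Airn. Meg3 and Rian in MCA-948 was the single correlation called, and 0 were called by rank or without 2 tumors. The endothelial score between letters was added after seeing the data. Depth limits genes near 0, where 3 counts are 0.063 to 0.074 CPM at the deepest tumor of each line.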
